A study of Mus musculus with 4 samples.

Results

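The BCL2 family sets the threshold of intrinsic apoptosis, and 10 of its genes were compared between bone marrow natural killer (NK) cells of Gabpb1l-/-Gabpb2-/- mice (dKO, 2 libraries) and of their littermate controls (Ctrl, 2 libraries). The genes were taken by symbol out of 37310 annotated genes, and each symbol matched a single gene. They comprise 3 pro-survival members (Bcl2, Bcl2l1 and Mcl1) and 7 pro-apoptotic members, of which 5 are BH3-only genes (Bcl2l11, Bid, Bbc3, Bmf and Pmaip1) and 2 are effectors (Bax and Bak1). All mice were C57BL/6 and 6 to 8 weeks old. NK cells are lymphocytes that kill infected or malignant cells without prior immunisation. They were sorted from marrow as CD3e-NK1.1+CD49b+ cells, and Smart-seq2 libraries, which amplify full-length cDNA, were made from their total RNA. GABP belongs to the Ets family of transcription factors, and its DNA-binding alpha subunit pairs with a beta subunit, encoded by Gabpb1 or Gabpb2. The dKO mice lack the long form of the Gabpb1 product together with Gabpb2, so they cannot form the tetramer of 2 alpha and 2 beta subunits. The labels do not limit the deletion to NK cells, and they give no further description of the controls' alleles.

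The 3 classes of proteins act on one another at the outer membrane of the mitochondrion. The effectors BAX and BAK form pores there, pro-survival proteins hold them in check, and BH3-only proteins either block the pro-survival proteins or activate the effectors directly. NK cells depend on IL-15 for survival, which acts largely by sustaining BCL2 and MCL1 and by restraining BIM, the product of Bcl2l11. Many of these proteins are also controlled after transcription, through the rapid turnover of MCL1, the cleavage of BID and the phosphorylation of BIM, which RNA levels do not show.

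Stretches of promoter sequence are shown for Mcl1 and Bcl2l11, whose upstream windows held the Ets-type letters CCGGAAG, and for Bmf, the member that fell in dKO cells. Each stretch is the 120 bases before the outermost RefSeq start of the gene on build GRCm38.p6, and capitals mark CCGGAAG or CGGAAG on either strand.
Mcl1, chr3:95658601-95658720, plus strand: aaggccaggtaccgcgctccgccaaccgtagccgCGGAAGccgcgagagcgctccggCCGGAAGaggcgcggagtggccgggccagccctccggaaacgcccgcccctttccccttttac
Bcl2l11, chr2:128125918-128126037, plus strand: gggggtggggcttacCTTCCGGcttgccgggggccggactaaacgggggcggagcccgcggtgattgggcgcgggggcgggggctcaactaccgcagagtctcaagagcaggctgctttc
Bmf, chr2:118549687-118549806, minus strand: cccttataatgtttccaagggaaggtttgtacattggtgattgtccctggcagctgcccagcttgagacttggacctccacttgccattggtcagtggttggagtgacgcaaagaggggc

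RefSeq windows of 250 bases before to 50 bases after each start were read for 9 of the 10 members, with 16 windows in all. None was read for Pmaip1. Member windows on chromosome 18, where Pmaip1 lies, were left out, and the shares over all genes were taken without that exclusion. CCGGAAG was in a window of 3 of these 9 members (Mcl1, Bcl2l11 and Bcl2l1), and 9.93% of all 27025 genes with a window had it. By window, it was in 3 of 16, against 8.86% of all 32851 windows. The shorter CGGAAG, which every CCGGAAG contains, was in windows of the same 3 members and in 18.8% of all genes. The 3 Bmf windows held neither run of letters, which says only that these letters are absent from those windows.

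Gene counts per library were 31469644 and 30233870 in dKO and 34724516 and 33299226 in Ctrl. Genes with a count numbered 19450 and 19220 in dKO and 15921 and 18206 in Ctrl, fewest in Ctrl replicate 1, which had the most counts. The whole-number counts were about 2.05 to 2.07 times the RSEM expected counts per gene, so the number of independent fragments behind a count may be smaller than the count. Gabpb2 had 85 and 86 counts in dKO libraries and 1244 and 1009 in Ctrl libraries. A count over the whole Gabpb1 gene (log2 fold change 0.56, adjusted p = 0.273) cannot check the loss of its long form, and Gabpa did not pass either (0.30, adjusted p = 0.578). Xist had 2 and 9 counts in dKO and 6066 and 6430 in Ctrl, and Ddx3y, Kdm5d, Eif2s3y and Uty of the Y chromosome had 0 counts in both Ctrl libraries and at least 1032 in each dKO library. The labels give no sex, and genotype and these sex-linked markers cannot be told apart in any result here. The 10 NK markers summed to 15191 and 14413.5 TPM in dKO and to 19256 and 19000 TPM in Ctrl, and none passed the test. Their log2 fold changes ranged from -0.89 (Gzma) to 0.16 (Eomes), and 8 were negative. Gzma alone had 2188 and 2606 TPM in dKO and 5071 and 3804 TPM in Ctrl. The 10 T cell markers summed to 803 and 819.8 TPM in dKO and to 1083 and 1287 TPM in Ctrl, and 2 of them fell (Cd3e and Trac). These sums are set largely by Cd247, Tcf7 and Lef1, whose log2 fold changes were -0.34, 0.19 and -0.12. They therefore understate the differences of Cd3e (-2.24), Trac (-1.90), Cd3g (-1.50) and Cd3d (-1.49). Trac had 48.94 and 64.71 TPM in dKO and 199.15 and 256.08 TPM in Ctrl. Markers of other marrow cells summed to 125 and 155 TPM in dKO and 139 and 294 TPM in Ctrl for the B lineage, to 2859.5 and 4611 TPM in dKO and 4084 and 5035 TPM in Ctrl for neutrophils, and to 4055 and 6836 TPM in dKO and 5212 and 7921 TPM in Ctrl for red cells. The monocyte list summed to 3629.97 and 4047 TPM in dKO and 3828 and 4394 TPM in Ctrl, and the plasmacytoid dendritic cell list to 202 and 219 TPM in dKO and 305 and 299 TPM in Ctrl. None of these other markers was called, and no marker of any list was at 0 in all 4 libraries. Within the neutrophil list, log2 fold changes were -1.97 for Mpo, -1.99 for Elane, -1.75 for Prtn3 and -1.45 for Ctsg. The rest of that list ranged from -0.56 (Ltf) to 0.12 (S100a9). Mpo had 70.25 and 55.63 TPM in dKO and 382.53 and 114.56 TPM in Ctrl. In the monocyte list, the log2 fold change of Ly6c2 was -1.26, and the rest ranged from -0.67 (Fcgr1) to 0.26 (Ccr2). Ly6c2 had 348.82 and 547.72 TPM in dKO and 1066.85 and 1126.76 TPM in Ctrl, which the monocyte sum does not show. In a sorted population, fewer cells of a type and less RNA per cell cannot be told apart.

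Of the 10 members, 1 fell and none rose in dKO cells (edgeR quasi-likelihood test, adjusted p under 0.05 over 13904 genes tested), beside 0.611% of all genes tested called in either direction and 0.295% called lower. All 10 members passed the filter on low counts. The median log2 fold change was 0.07 over the members and 0.01 over all genes tested. The libraries of the 2 groups did not overlap in CPM for 5 members, and 41.6% of all genes tested were separated in this way. Of the 5, dKO was lower for Bmf and Pmaip1 (19.9% of all genes tested) and higher for Bbc3, Bax and Mcl1 (21.7% of all genes tested). At an unadjusted p under 0.05 there were 3 members, all BH3-only genes (Bmf, Pmaip1 and Bbc3), and 10.6% of all genes tested. Of these 3, Bmf and Pmaip1 were lower and Bbc3 was higher in dKO cells. The plot of CPM by library gives all 10 members, and CPM are counts scaled to a common library size by the TMM method, comparable between libraries for a gene but not between genes of different length.

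**Figure D1:**
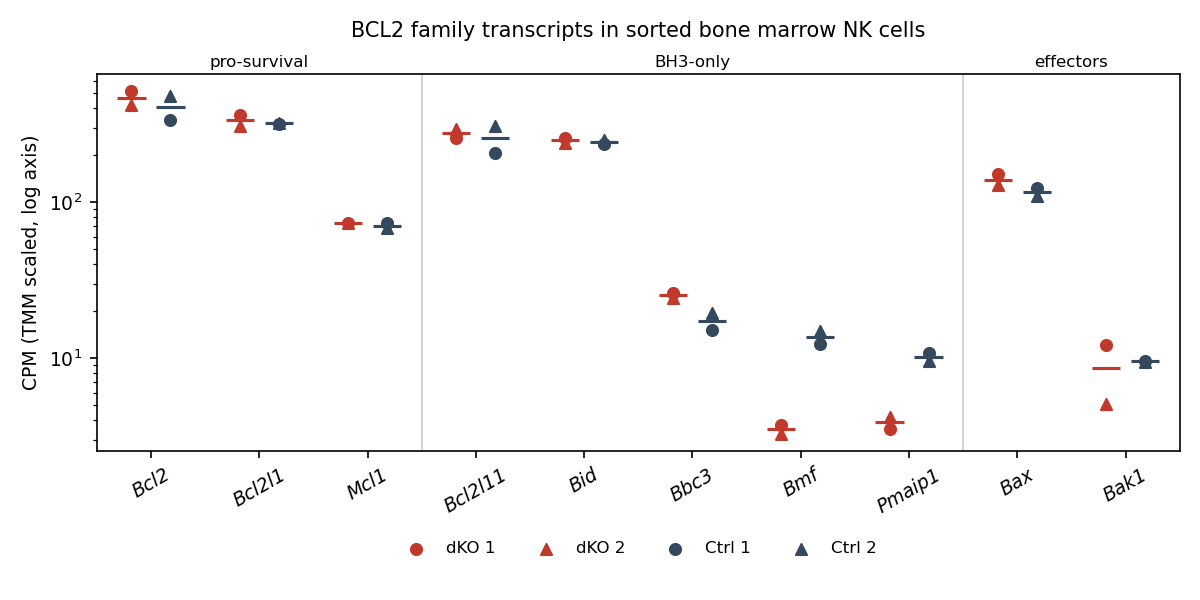
CPM (TMM scaled, log axis) of the 10 members in each library, with dKO left of Ctrl and a bar at the group mean. Bmf and Pmaip1 lie at 3.28 to 4.20 CPM in the dKO libraries and at 9.55 to 14.97 CPM in the Ctrl libraries, and the Bak1 points of dKO lie far apart.

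The pro-survival genes were close between groups. Bcl2, the founding member, whose product protects resting lymphocytes, had 512 and 419.8 CPM in dKO and 333 and 481 CPM in Ctrl. The groups overlapped, and the Ctrl libraries lay further apart than the dKO libraries. The log2 fold change of Bcl2 was 0.19 (SE 0.21, 95% interval -0.28 to 0.67, edgeR adjusted p = 0.821). Without Ctrl replicate 1 it was -0.05.

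Bcl2l1, which encodes BCL-XL, had 363 and 306 CPM in dKO and 317 and 319.7 CPM in Ctrl. Both Ctrl values lay between the dKO values. Its log2 fold change was 0.07 (SE 0.15, 95% interval -0.29 to 0.42, edgeR adjusted p = 0.928).

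Mcl1, whose short-lived product is needed for the survival of mouse NK cells, had 73.5 and 73.9 CPM in dKO and 73.1 and 68.0 CPM in Ctrl. Both dKO values lay just above the higher Ctrl value, and the log2 fold change was 0.06 (SE 0.17, 95% interval -0.32 to 0.44, edgeR adjusted p = 0.945). Mcl1 lies 0.441 Mb from the targeted gene Gabpb2 on chromosome 3 of GRCm38 (95658788 to 95663176, plus strand, ENSMUSG00000038612). For each of the 3 pro-survival genes the interval excluded a change of 2-fold in either direction.

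**Figure D2:**
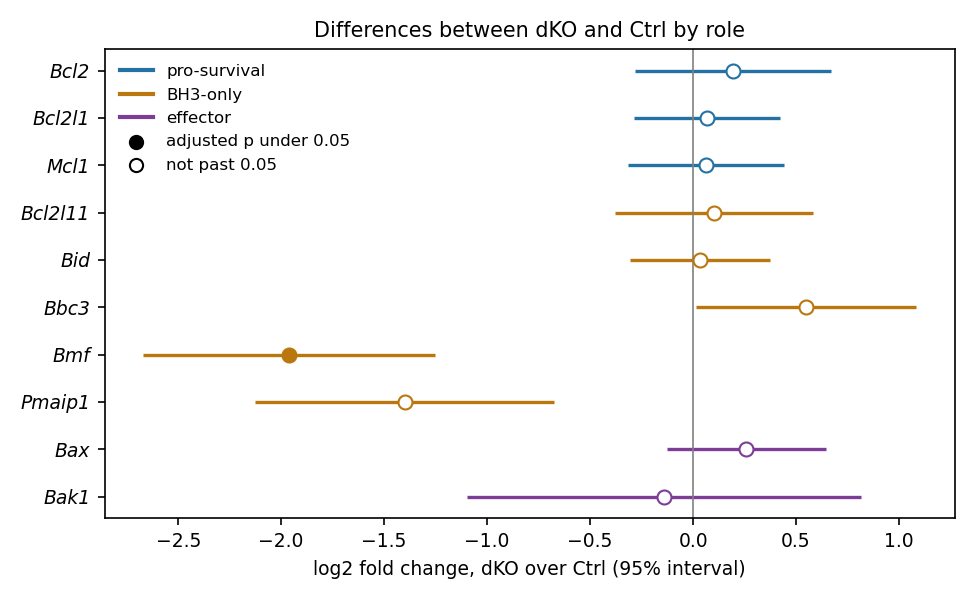
Log2 fold change of dKO over Ctrl for each member with its 95% interval, coloured by role, and filled where the edgeR adjusted p was under 0.05. Only Bmf, at -1.96, is filled, and the intervals of the 3 pro-survival genes all span 0.

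The BH3-only genes differed among themselves in size and sign. Bmf, whose product is held at the cytoskeleton until a stress frees it to bind pro-survival proteins, had 3.70 and 3.28 CPM in dKO and 12.2 and 14.97 CPM in Ctrl. Both dKO libraries were far below both Ctrl libraries. Bmf was 3.89-fold lower in dKO cells (log2 fold change -1.96, SE 0.31, 95% interval -2.67 to -1.25, edgeR adjusted p = 0.0386). It ranked 74 by p among the 13904 genes tested.

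The Bmf counts were 119 and 99 in dKO and 416 and 497 in Ctrl, and the RSEM expected counts were 66 and 57 in dKO and 219 and 255 in Ctrl. The log2 fold change was -1.81 with the RSEM counts (adjusted p = 0.0335). The call was lost without dKO replicate 1 (log2 fold change -2.05, adjusted p = 0.0768) and without dKO replicate 2 (-1.88, adjusted p = 0.123). Such a fit leaves 1 library in a group, which is assumed to vary like the other group. Bmf lies on chromosome 2 of GRCm38 (118528757 to 118549687, minus strand, ENSMUSG00000040093), 8.08 Mb from Gabpb1.

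Pmaip1, which encodes NOXA, a selective antagonist of MCL1, had 3.52 and 4.20 CPM in dKO and 10.8 and 9.55 CPM in Ctrl. As for Bmf, the groups did not overlap, and both are weakly expressed genes. The log2 fold change was -1.40 (SE 0.32, 95% interval -2.13 to -0.68), and it did not pass (edgeR adjusted p = 0.135, rank 216 by p). It passed with DESeq2 (adjusted p = 0.0172) and without the count filter (adjusted p = 0.0127). Counts were 113 and 127 in dKO and 369 and 317 in Ctrl.

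Bbc3, which encodes PUMA, a potent activator of the effectors and a target of p53, had 26.1 and 24.3 CPM in dKO and 15.2 and 19.3 CPM in Ctrl. It was the BH3-only gene with the highest positive value, with no overlap between the groups, and did not pass (log2 fold change 0.55, SE 0.23, 95% interval 0.01 to 1.08, edgeR adjusted p = 0.455). PUMA and NOXA are both products of p53 target genes, and the point estimates of their genes had opposite signs. Neither gene was called, and a part of p53 in these values was not tested. The p53 gene Trp53 itself had a log2 fold change of -0.25 (SE 0.15, adjusted p = 0.628), named after its value was seen.

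Bcl2l11, the BIM gene, had 258 and 293 CPM in dKO and 205 and 308 CPM in Ctrl. The dKO values lay between the Ctrl values. The log2 fold change was 0.10 (SE 0.21, 95% interval -0.38 to 0.58, edgeR adjusted p = 0.921), and -0.16 without Ctrl replicate 1. Bcl2l11 lies 1.45 Mb from Gabpb1 on chromosome 2 (128126038 to 128162547, plus strand, ENSMUSG00000027381).

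Bid, whose product links death receptors to the mitochondrion once it is cleaved, had 258 and 238 CPM in dKO and 235 and 249 CPM in Ctrl. The groups overlapped, and the log2 fold change was 0.03 (SE 0.15, 95% interval -0.31 to 0.37, edgeR adjusted p = 0.972). Its sign turned without dKO replicate 1 and without Ctrl replicate 1 (-0.03 and -0.01).

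The effectors did not pass. Bax had 151 and 128 CPM in dKO and 123 and 109.5 CPM in Ctrl, with both dKO libraries above both Ctrl libraries (log2 fold change 0.26, SE 0.17, 95% interval -0.13 to 0.64, edgeR adjusted p = 0.668). Bak1 had 12.2 and 5.06 CPM in dKO and 9.63 and 9.40 CPM in Ctrl. The dKO libraries lay on either side of the Ctrl libraries, and the interval of the difference was the widest of the 10 members (log2 fold change -0.14, 95% interval -1.10 to 0.82, SE 0.42, edgeR adjusted p = 0.951). The log2 fold change of Bak1 was -0.91 without dKO replicate 1 and 0.35 without dKO replicate 2.

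Levels of different genes were set side by side in TPM, which divides by gene length. In dKO the order by mean TPM was Bax (366 ± 71.2, SD, n = 2), Bcl2l1 (340.1 ± 68.4), Bid (199 ± 32.4), Bcl2 (120.4 ± 27.3), Bcl2l11 (107 ± 2.88), Mcl1 (33.9 ± 2.46), Bbc3 (26.7 ± 1.75), Bak1 (9.05 ± 5.97), Bmf (2.52 ± 1.42) and Pmaip1 (2.34 ± 0.156). In Ctrl it was Bcl2l1 (309 ± 15.1), Bax (305 ± 13.9), Bid (191 ± 16.6), Bcl2 (103 ± 29.2), Bcl2l11 (103 ± 38.2), Mcl1 (31.7 ± 0.573), Bbc3 (18.5 ± 2.68), Bmf (9.56 ± 3.50), Bak1 (9.54 ± 0.573) and Pmaip1 (6.13 ± 0.495). The neighbours Bax and Bcl2l1, and Bcl2 and Bcl2l11, overlapped between libraries in each group, as did Bmf and Pmaip1 in dKO and Bmf and Bak1 in Ctrl. All other neighbours in the order were separated in both libraries of a group. The TPM of Bmf carries an added uncertainty, because its RSEM effective length differed 2.84-fold between libraries (4324 and 1522 bases in dKO, 2639 and 1971 bases in Ctrl), while that of the other members differed by at most 1.16-fold.

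Summed over the members, the balance between the roles was nearly the same in the 2 groups. The pro-survival genes summed to 564 and 425 TPM in dKO and to 412 and 476 TPM in Ctrl. The pro-apoptotic genes summed to 792 and 633 TPM in dKO and to 609 and 676 TPM in Ctrl. Pro-survival transcripts thus made up 41.6% and 40.2% of the summed TPM in dKO and 40.4% and 41.3% in Ctrl.

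The log2 ratio of pro-survival to pro-apoptotic TPM was -0.53 ± 0.06 in dKO and -0.53 ± 0.04 in Ctrl (SD, n = 2), a difference of 0.00241. Against the BH3-only genes alone it was 0.54 ± 0.14 in dKO and 0.45 ± 0.12 in Ctrl. Against the effectors it was 0.40 ± 0.01 in dKO and 0.49 ± 0.21 in Ctrl. In all 3 ratios the difference between groups was smaller than the pooled SD between libraries. No p-value was taken for these ratios, since the members were chosen.

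The sums are set by the abundant genes, and the members that were lower in dKO are weakly expressed. Bmf and Pmaip1 together gave 1.04% and 1.92% of the summed BH3-only TPM in dKO and 4.76% and 4.81% in Ctrl. With geometric means, which weight each member equally, the log2 ratio of pro-survival to pro-apoptotic genes was 2.17 and 1.97 in dKO and 1.55 and 1.52 in Ctrl. The groups did not overlap on that scale, with a difference of 0.54, and the difference was 0.01 once Bmf and Pmaip1 were left out, an alternative chosen after the values were seen.

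**Figure D3:**
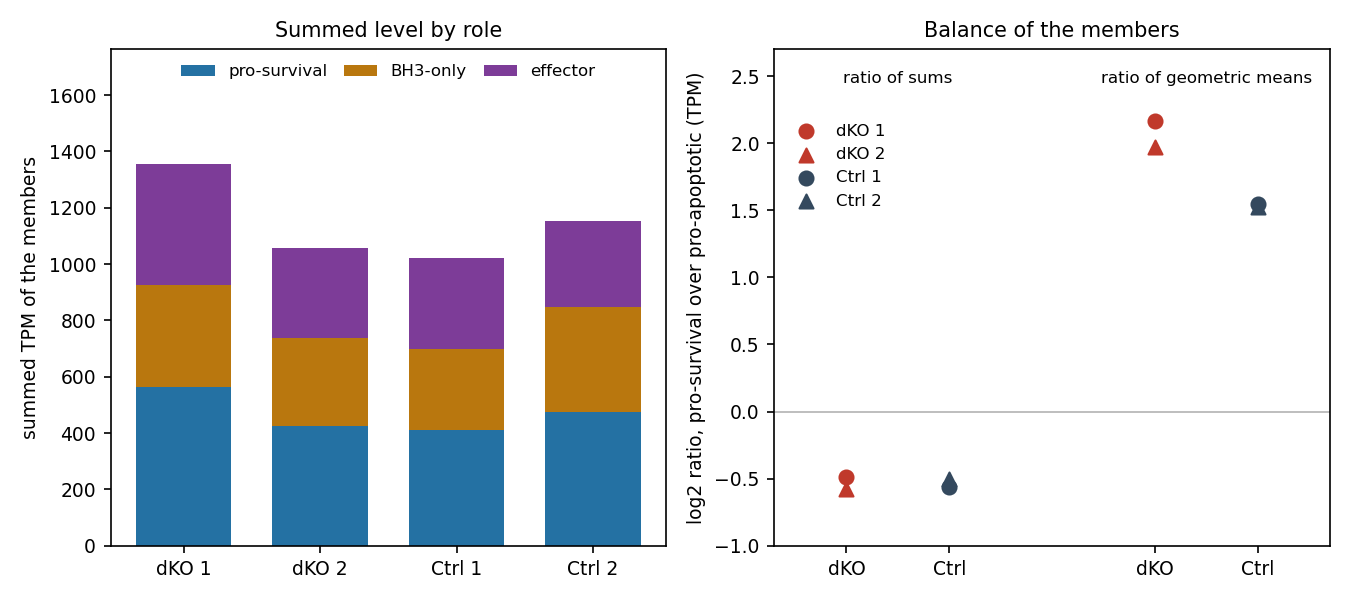
Left, summed TPM of the pro-survival, BH3-only and effector genes in each library. Right, log2 ratio of pro-survival to pro-apoptotic genes per library from summed TPM, where dKO and Ctrl overlap near -0.53, and from geometric means, where dKO lies 0.54 above Ctrl on average.

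Other genes of the pathway were read from 3 lists around the members, and no gene of these lists was called. Of 16 other BCL2 family genes 11 were tested, and their median log2 fold change was 0.19. The smallest p were those of Bnip3, a mitochondrial receptor of mitophagy, with 79.2 ± 11.6 CPM in dKO and 60.1 ± 8.60 CPM in Ctrl (log2 fold change 0.40, SE 0.19, adjusted p = 0.548 with edgeR), and of Bcl2l12, with 5.68 ± 0.728 CPM in dKO and 7.91 ± 0.572 CPM in Ctrl (-0.48, SE 0.31, adjusted p = 0.671). The pro-survival Bcl2a1 genes are nearly identical in sequence, and their counts are therefore uncertain. The 3 that were tested had mean levels of at most 4.84 CPM in either group, a scale that does not compare genes of different length. In TPM, Bcl2a1b had 67.01 and 99.03 in dKO and 54.96 and 56.06 in Ctrl, above Mcl1 in each library. Bcl2a1d had 7.21 and 13.92 TPM in dKO and 13.93 and 11.49 TPM in Ctrl, and Bcl2a1a had at most 1.87 TPM. These genes were named after their values were seen, and the pro-survival sums above leave them out.

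Downstream of the mitochondrion, where released cytochrome c assembles the apoptosome and caspases are activated, 18 of 19 genes were tested. Of these, 13 had a negative and 5 a positive log2 fold change, beside 6735 negative and 7169 positive among all 13904 genes tested. The median was -0.22 with a range of -0.86 to 0.27, beside 0.01 over all genes tested. Xiap, a caspase inhibitor, had 42.8 ± 4.22 CPM in dKO and 57.5 ± 8.72 CPM in Ctrl (log2 fold change -0.43, SE 0.20, edgeR adjusted p = 0.520). Apaf1, the scaffold of the apoptosome, had 49.04 ± 14.9 CPM in dKO and 68.3 ± 4.19 CPM in Ctrl (-0.48, SE 0.23, adjusted p = 0.545). Both an inhibitor and an activator of caspases were thus lower in both dKO libraries, without passing. The groups did not overlap for 7 of the 18 genes, beside 41.6% of all genes tested. Among these 7, Casp9, named after its value was seen, was higher in both dKO libraries (log2 fold change 0.19, SE 0.16). None of the 18 genes had an unadjusted p under 0.05.

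Of 31 regulators of the members 30 were tested, and their median log2 fold change was -0.06. Jak3, the kinase of the IL-15 receptor's gamma chain, had 152 ± 7.29 CPM in dKO and 258 ± 7.21 CPM in Ctrl (log2 fold change -0.77, SE 0.15, edgeR adjusted p = 0.0790). Nfil3, a transcription factor needed for NK cell development, had 237 ± 16.4 CPM in dKO and 136 ± 30.8 CPM in Ctrl (0.79, SE 0.19, adjusted p = 0.156). Both missed the threshold, and their groups did not overlap, as for 14 of the 30 regulators and 41.6% of all genes tested. At an unadjusted p under 0.05 there were 5 of 30 regulators, beside 10.6% of all genes tested. They were Jak3, Nfil3, E2f1, Foxo1 and Mapk8, the last 3 named after their values were seen. E2f1 had only 43 and 14 counts in dKO and 140 and 67 in Ctrl (log2 fold change -1.76, SE 0.69, edgeR adjusted p = 0.417). Foxo1, a forkhead factor, had a log2 fold change of 0.61 (SE 0.24, adjusted p = 0.424), and Foxo3, a known activator of Bcl2l11 and Bbc3, had -0.36 (SE 0.26, adjusted p = 0.710), also named after its value was seen.

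**Figure D4:**
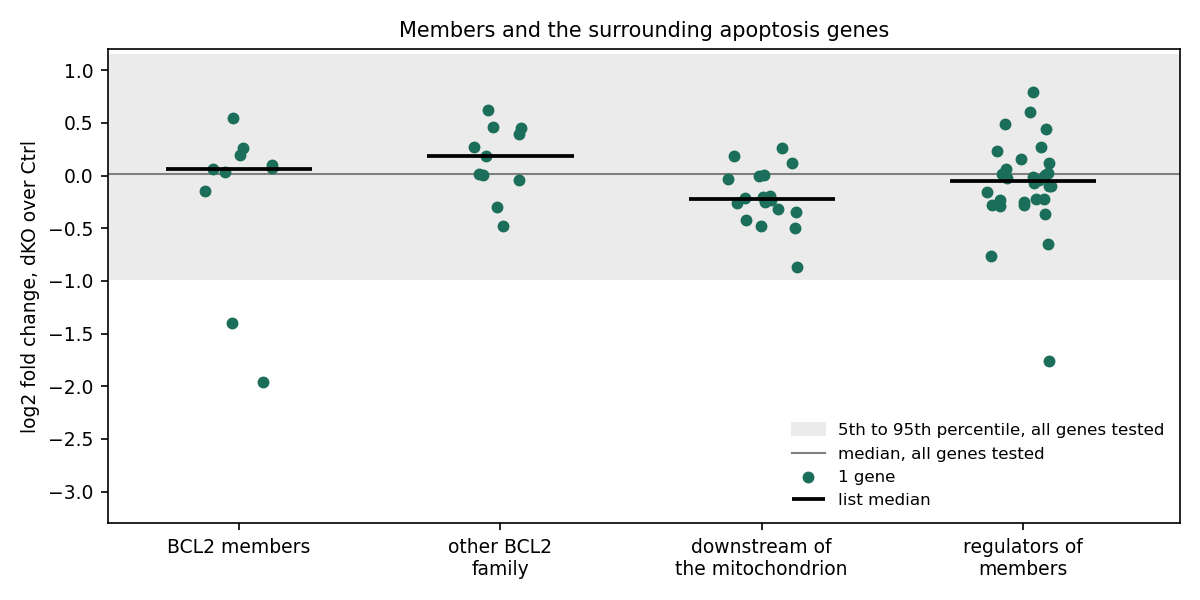
Log2 fold change of dKO over Ctrl for each gene of the members and of the 3 surrounding lists, with the list median as a bar and the 5th to 95th percentile of all genes tested (-0.99 to 1.15) shaded. Bmf (-1.96) and Pmaip1 (-1.40) of the members and E2f1 (-1.76) of the regulators lie below the shaded range.

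The genes whose pattern over the 4 libraries was most like that of Bmf, by the root-mean-square difference of centred log2 CPM, were Gm15467 (0.0841), Zfp105 (0.117) and Trdv5 (0.123). None of the 3 was called. Zfp105 had mean levels of 4.16 CPM in dKO and 14.1 CPM in Ctrl (edgeR adjusted p = 0.0618, log2 fold change -1.76, SE 0.32). The others had mean levels of at most 1.24 CPM in either group. The likeness rests on 4 libraries and is a description only. Of the 10 T cell markers, Cd3e (log2 fold change -2.24, edgeR adjusted p = 0.00790) and Trac (-1.90, adjusted p = 0.0207) were lower in dKO as were Bmf and Pmaip1. The other 8 did not pass. They were Cd8a (-2.28), Cd3g (-1.50), Cd3d (-1.49), Cd8b1 (-1.30), Cd4 (-0.65), Cd247 (-0.34), Lef1 (-0.12) and Tcf7 (0.19). The part of T cell transcripts in the values of Bmf and Pmaip1 was not tested.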

How the data were processed

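For each library the authors deposited integer counts per gene and a table in the RSEM format, per the file headers, with expected counts, TPM and effective gene lengths. DESeq2 1.32.0, HTSeq 0.6.1, RSEM 1.3.0, TopHat2 2.1.1, Trimmomatic 0.36, FastQC 0.11.5 and build mm9 are listed in the submitters' processing notes. Parameters, annotation release and strand setting were not given in the sources used here, so overlapping and antisense genes are uncertain. Reads outside genes were kept out of library sizes. They made up 23.8% and 24.3% of all tallied reads, assigned to a gene or not, in dKO and 18.1% and 21.5% in Ctrl.

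Counts were tested with edgeR 4.0.16 (robust quasi-likelihood fit, TMM, filterByExpr with a minimum count of 10) in R 4.3.3, dKO over Ctrl, with Benjamini-Hochberg adjustment over 13904 genes. The SE was taken as the size of the log2 fold change over the root of its F value, and 95% intervals use the matching t quantile. An exact permutation of 2 against 2 libraries cannot give a two-sided p below 0.333. The series design calls the libraries biological replicates without naming animals. TPM entered no test. In simulated counts for this comparison (13904 genes, 200 of them changed, each with a mean of at least 5 CPM, in 5 runs), the test found 60% of 2-fold, 97.9% of 4-fold and 99.7% of 8-fold planted changes, and 7.76% of calls were false. The simulated counts were drawn from the model fitted here, with its own estimates of spread and whole-number counts taken as independent. The rates therefore hold only as far as that model does.

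The members and lists were chosen with earlier results of these data known. The genes named are the 10 members, the GABP subunit checks, the 2 genes with the smallest p in each list without a call, and the 3 genes most like Bmf. Cell type markers are named where called or to show the spread of their list, and Xist and the Y-linked genes were chosen with their values known. Other names are marked. Positions are from GENCODE M21 on GRCm38, matched by Ensembl identifier, and promoter windows from RefSeq GRCm38.p6. Neither is the build of the counts. Alternatives were other scalings and filters, DESeq2 1.42.0, limma-voom (limma 3.58.1), a fit that is not robust, rounded RSEM expected counts, a replicate block and leaving out each library.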

Additional observations from a re-analysis of the deposited data

How the results depend on the processing

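Bmf was lower in dKO under all 14 alternatives and called under 12 of them, with log2 fold changes of -2.10 to -1.81 when single libraries were left out. Those fits leave 1 library in a group, assumed to vary like the other group, so their p rests on the spread of the other group. Pmaip1 was lower under all 14 and called under 2 (-1.41 with DESeq2 and -1.41 without the count filter). Bbc3, Bax and Mcl1 kept a positive sign under all 14 and were never called. Leaving out single libraries turned the sign of Bcl2 (range -0.0498 to 0.484), Bcl2l1 (-0.0581 to 0.185), Bcl2l11 (-0.162 to 0.426), Bid (-0.0259 to 0.0879) and Bak1 (-0.91 to 0.35), none of which was called under any alternative. Changed genes numbered 85 as reported, 559 without the count filter, 147 with the stricter filter (minimum count 50), 398 with DESeq2, 166 at a threshold of 0.1 and 73 to 187 with single libraries left out (187 without Ctrl replicate 2). The cause of these shifts was not tested.

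With the replicate block, 100 genes changed and Bmf had a log2 fold change of -1.96 (adjusted p = 0.0484). The labels do not say that numbers pair libraries, and deviations of same-numbered libraries correlated at r = -0.23 over 8164 genes. With crossed numbers, chosen after seeing the data, 156 genes changed. With geometric means the difference in log2 balance between groups was 0.54 against all pro-apoptotic genes (0.00241 with sums), 0.69 against BH3-only genes (0.10 with sums) and 0.15 against effectors (-0.10 with sums). It moved by less than the SD between libraries with CPM per length, without Mcl1 and with single libraries left out. Without Bmf and Pmaip1 the geometric balance against BH3-only genes differed by -0.0794. Counts near 100 for Bmf and Pmaip1 in dKO limit their precision.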
